A study of Mus musculus with 24 samples.

Results

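The 8 B cell genes Cd79a, Cd79b, Ms4a1, Pax5, Cr2, Fcer2a, Cd22 and Blk were followed through array profiles of mouse CD11b+ preparations from spleen and bone marrow. Members were found by symbol among the non-control probes, which gave 10 of the 39429 probes and 8 of the 32451 genes or transcripts on the array. Cr2 and Pax5 had a further probe each, given as the other probe, and each gene is otherwise described by its brightest probe.

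The study profiled CD11b+ cells after myocardial infarction (MI) in mice lacking histidine decarboxylase (HDC-KO), mice lacking the transcription factor STAT6 (STAT6-KO) and wild-type mice (WT). Each genotype was sampled as a control and at 1, 2 and 4 weeks after MI, in both tissues, with 1 one-colour array for each condition. The labels give male mice and a pool of 5 mice for each sample, and the methods give 10 weeks of age and a Balb/C background. For the arrays the methods name CD11b+ cells taken from both tissues and refer to an earlier article for the details of sample preparation. A magnetic-bead sort is described in them for cultured bone marrow cells.

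Of the 24 arrays 22 were complete, 11 from each tissue. The files of the HDC-KO spleen control and of the STAT6-KO bone marrow array at 1 week after MI broke off early and were not used. Values are log2 processed signals minus the array's 75th percentile, so a difference of 1 is a factor of 2, and levels of different probes are compared only to name the gene of a list whose probe had the highest median signal in a tissue.

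B cells recognise antigen through a membrane immunoglobulin that signals through CD79A and CD79B, and coreceptors on the cell surface raise or damp that signal. They arise in the bone marrow under the control of PAX5, pass to the spleen as immature cells and settle there as follicular or marginal zone B cells, which carry complement receptor 2. CD11b, the product of Itgam, is the integrin chain used to collect neutrophils, monocytes and macrophages, and some B-1 cells and NK cells carry it too.

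The genotype labels were checked first. Hdc, the gene for histidine decarboxylase, ranged from 1.67 to 2.78 on the 7 HDC-KO arrays and from 4.32 to 5.51 on the 8 WT arrays. No HDC-KO array reached the WT range, although the Hdc probe was still well above background on all of them. Stat6 had 3 probes, and on one of them the 7 STAT6-KO arrays ran from -1.11 to 0.73 and the 8 WT arrays from 0.05 to 1.29. The spleen array labelled as STAT6-KO at 4 weeks after MI, at 0.73, was the single STAT6-KO array inside the WT range on this Stat6 probe. On another probe it had 0.20 and the STAT6-KO bone marrow array at 2 weeks had -0.27, where WT ran from -0.43 to 1.99, and on the last probe the STAT6-KO spleen array at 2 weeks had 2.44, where WT ran from 2.38 to 3.70. Results from the spleen are therefore also given without the array at 4 weeks where it matters.

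Xist, the RNA that coats the inactive X chromosome of female cells, had a median of -1.22 on the HDC-KO arrays and of -8.62 on the WT arrays for its brighter probe. All 7 HDC-KO arrays and the 2 STAT6-KO control arrays were well above background for this Xist probe, against 0 of 8 WT arrays, although every sample was labelled male. The other Xist probe was well above background on 5 of 8 WT arrays as well, on 6 of 7 STAT6-KO and on 7 of 7 HDC-KO arrays. It ran from -7.31 through a median of -5.82 to -5.42 in WT, from -6.07 through -5.44 to -3.51 in STAT6-KO, where the 2 controls were the highest, and from -3.31 through -2.58 to -2.05 in HDC-KO. Genotype and this sign of female cells cannot be told apart for HDC-KO. The 2 STAT6-KO control arrays bring the same sign into the comparisons of STAT6-KO and of time, so that calls of the members and of the other lists that change without them are named.

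The CD11b label was checked against myeloid genes. Itgam was well above background on all 22 arrays, with a lowest, median and highest value of 3.52, 4.23 and 4.83 in spleen and of 5.10, 5.60 and 5.85 in bone marrow. Every bone marrow array lay above every spleen array for Itgam, and Csf3r, the receptor for granulocyte colony-stimulating factor, ranged from 5.22 to 6.26 in spleen and from 5.79 to 6.36 in bone marrow. B cell genes were present in the same preparations: all 8 members were well above background on all 22 arrays.

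The partners that carry the signal of the B cell receptor come first. Cd79a, the alpha chain of the signalling pair, had a lowest, median and highest value of -3.25, -1.43 and -0.23 over the 11 spleen arrays and of -3.29, -2.72 and -1.87 over the 11 bone marrow arrays. Cd79b, the beta chain, ran from 3.31 through a median of 4.46 to 5.05 in spleen and from 0.10 through 3.13 to 4.03 in bone marrow. Both genes overlapped between the tissues, and the bone marrow array of WT mice at 1 week after MI was the lowest of all for both. Blk, a Src family kinase acting below the receptor, ran from -4.46 through -3.47 to -2.47 in spleen and from -5.64 through -4.26 to -3.65 in bone marrow, with overlap.

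The coreceptors and other surface proteins come next. Cr2, complement receptor 2, which binds fragments of C3 on antigen, ran from 0.97 through 2.66 to 3.43 in spleen and from -2.72 through -1.86 to -1.15 in bone marrow. Ms4a1, which encodes CD20, ran from 2.23 through 3.72 to 4.70 in spleen and from -2.83 through 0.77 to 2.17 in bone marrow. For Cr2 and Ms4a1 every spleen array lay above every bone marrow array. Fcer2a, the low-affinity IgE receptor CD23 that interleukin-4 induces in B cells, ran from -3.20 through -2.30 to -1.44 in spleen and from -2.98 through -2.38 to -2.0 in bone marrow. Cd22, an inhibitory coreceptor that binds sialic acid, ran from 0.48 through 0.95 to 1.43 in spleen and from 1.02 through 1.16 to 1.68 in bone marrow. Fcer2a and Cd22 overlapped between the tissues.

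Pax5, the transcription factor that holds cells in the B lineage, ran from -2.62 through -1.63 to -0.05 in spleen and from -4.00 through -1.85 to -0.64 in bone marrow. Its lowest bone marrow values were those of the 2 arrays at 1 week after MI, and its highest spleen values those at 4 weeks in STAT6-KO and at 2 and 4 weeks in HDC-KO. The other Pax5 probe ran from -5.61 through -4.57 to -2.81 in spleen and from -6.51 through -4.31 to -3.11 in bone marrow. It was not well above background on the WT bone marrow array at 1 week after MI. Its differences that draw on this array are therefore not exact.

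**Figure D1:**
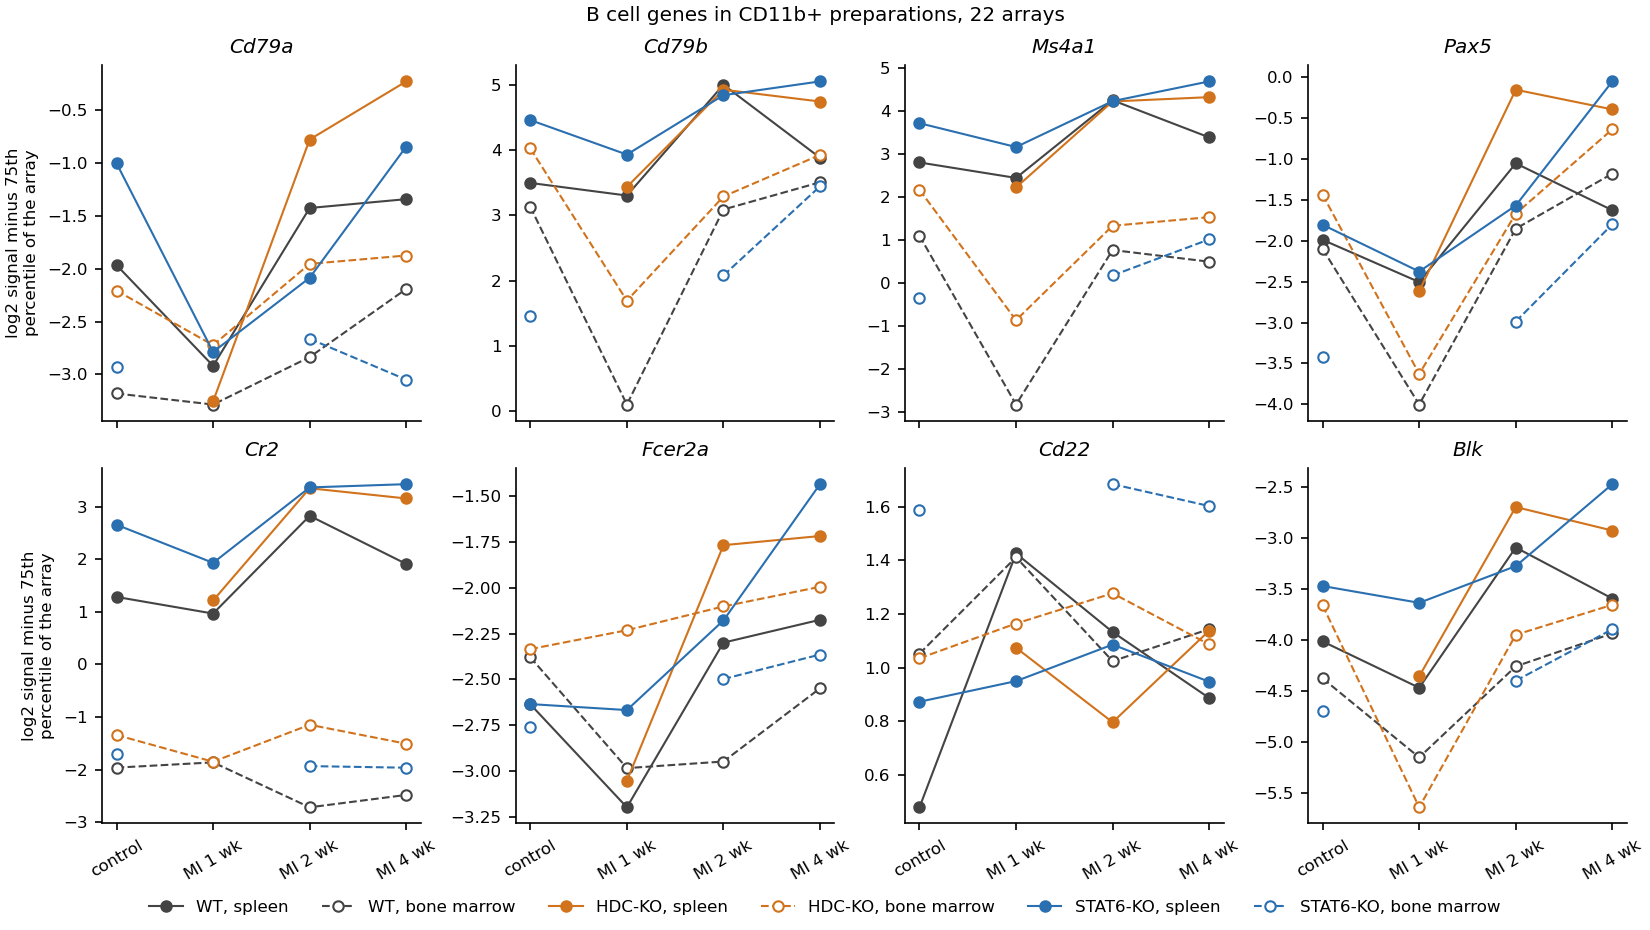
Log2 signal relative to the array's 75th percentile (vertical axis) for the 8 B cell genes by time after MI (horizontal axis), with 1 point for each array, lines joining the arrays of a genotype and a break where an array was not complete. Cr2 and Ms4a1 lie higher in spleen on every array, and Pax5 has its lowest bone marrow values at 1 week after MI.

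The members were on the whole higher in spleen than in bone marrow. In the limma fit over 10 pairs of arrays of the same genotype and time, 7 of the 8 members differed at an adjusted p under 0.05, against 54.4% of the 27668 genes tested. Of these, 6 were higher in spleen, where 22.4% of all genes were, and 1 was lower, where 32.1% of all genes were. The median difference was 1.02 over the members and -0.17 over all genes tested, and quantile normalization moved the latter to -0.05. The genotypes of a tissue sat on a slide each, so tissue and slide cannot be told apart, and in bulk RNA fewer B cells and less RNA per cell cannot be told apart either.

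Cr2 had the largest difference among the members. Its pairs ran from 2.83 in WT at 1 week to 5.55 in WT at 2 weeks, the estimate was 4.33 ± 0.28 (SE, 10 pairs) and the adjusted p 3.02e-07. Spleen was higher in 10 of 10 pairs, with an exact two-sided sign-flip p of 0.00195, the smallest that 10 pairs allow. The other Cr2 probe gave 3.82 ± 0.21, adjusted p 1.05e-07. Ms4a1 was 3.40 ± 0.28 higher in spleen (adjusted p 1.42e-06), from 1.71 in the WT controls to 5.28 in WT at 1 week, and higher in 10 of 10 pairs.

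The signalling genes were higher in spleen by less. Cd79b differed by 1.74 ± 0.29 (adjusted p 0.000339), with pairs from 0.37 in the WT controls to 3.20 in WT at 1 week, all 10 of them higher in spleen. Cd79a differed by 1.08 ± 0.24 (adjusted p 0.00206) and was higher in 9 of 10 pairs, the exception being HDC-KO at 1 week with -0.53. Blk differed by 0.96 ± 0.13 (adjusted p 7.55e-05) and was higher in spleen in 10 of 10 pairs.

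Pax5 was 0.95 ± 0.22 higher in spleen (adjusted p 0.00322) and higher in 9 of 10 pairs, with an exact two-sided sign-flip p of 0.00977. WT at 4 weeks was the pair that went the other way, at -0.45. The call depended on the probe, since the other Pax5 probe gave 0.44 ± 0.26 with an adjusted p of 0.172, where the 20 alternatives for Pax5 ran from 0.000636 to 0.172. That probe was not well above background on the WT bone marrow array at 1 week, so its difference is not exact.

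Cd22 went in the opposite direction by a small amount, and Fcer2a did not differ in the fit. Cd22 was lower in spleen in 7 of 10 pairs, by -0.32 ± 0.12 (adjusted p 0.0342; exact two-sided sign-flip p 0.0234). The Cd22 call was kept in 11 of 19 alternatives, whose adjusted p ran from 0.0169 to 0.107. It was lost without the WT control pair (-0.29), the HDC-KO pair at 2 weeks (-0.30), the STAT6-KO control pair (-0.28) or the STAT6-KO pairs at 2 weeks (-0.29) or 4 weeks (-0.28), under quantile normalization (-0.25), under median scaling (-0.28) and with the slide as a block (-0.33). Fcer2a differed by 0.17 ± 0.16 (adjusted p 0.381) and was higher in spleen in 7 of 10 pairs (exact two-sided sign-flip p 0.299).

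Genes that act with the members divided by stage of B cell life. Of 15 mature B cell surface genes, 10 were higher in spleen and 1 lower, with a median difference of 2.16. Among the called genes Ccr6, a chemokine receptor, had 5.29 and Cxcr5, the receptor that guides B cells into follicles, had 4.23, while Fcrl1 had 0.88 and the tetraspanin Cd37 had -1.06. Of 10 B lineage transcription factors, 8 were higher in spleen and 1 lower (median 1.17), from Foxo1 at 1.96 and Ikzf3 at 1.94 to Bach2 at 0.66 and Id3 at -0.66.

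Early B cell genes, which belong to progenitors that rearrange their immunoglobulin genes, went the other way. Of 8, 5 were lower in spleen and 2 higher, with a median of -2.26. Rag1, part of the recombinase, was well above background on 0 of 10 spleen arrays and on 9 of 10 bone marrow arrays, at least 17.4-fold lower in spleen. With Rag1 and Rag2 at such bounds the median of the list was -1.98. Vpreb1, of the surrogate light chain, differed by -3.70, whereas Il7r, the interleukin-7 receptor that T cells carry too, was 1.91 higher in spleen and Cd93 0.63 higher.

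Of 13 genes of receptor signalling, 5 were higher in spleen and 3 lower (median 0.25). Bank1, a B cell scaffold protein, differed by 2.86 and Cd72 by 2.10, against -0.48 for Plcg2 and -0.36 for Syk, which myeloid cells use as well. Of 8 plasma cell genes 6 were higher in spleen and 0 lower (median 1.30), with Jchain, which joins polymeric antibodies, at 2.50, Tnfrsf17 at 2.40, Prdm1 at 0.77 and Irf4 at 0.66. Jchain was also the single one of 10 immunoglobulin symbols searched for that the array carried.

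Fcer2a has company among genes that interleukin-4 and STAT6 induce in B cells, a list that holds it. Of these 6 genes 4 were higher in spleen and 0 lower, with a median of 2.00. Il4i1 differed by 4.20, Cd86, a costimulatory ligand, by 2.65, H2-Aa of class II by 2.38 and Il4ra by 1.62. Macrophages and dendritic cells express several of these genes too.

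**Figure D2:**
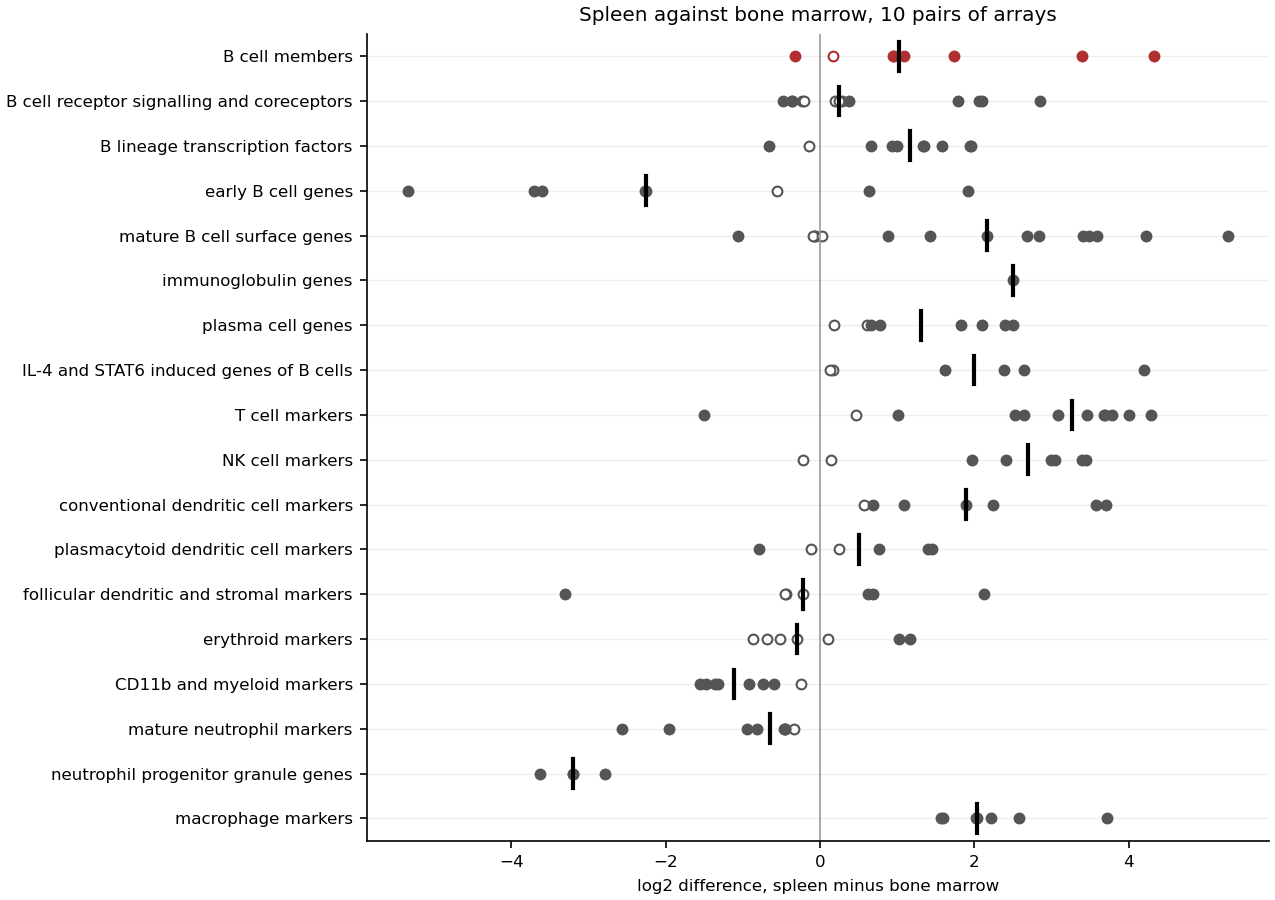
Difference between spleen and bone marrow on the log2 scale (horizontal axis) for each gene of the 18 lists (rows), filled where the limma fit called it, with a bar at the list's median and the members in red. The median of the members is 1.02, that of the T cell markers 3.27 and that of the CD11b and myeloid markers -1.12.

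Markers of other cell types moved with the members. Of 12 T cell markers 10 were higher in spleen and 1 lower (median 3.27). Cd3g was 4.29 and Cd5 4.00 higher, Cd3e differed by 1.02 and Cd3d by -1.5. The log2 of the T cell list's summed signal ran from 4.12 through a median of 5.45 to 6.30 in spleen and from 3.99 through 4.20 to 4.73 in bone marrow, with Thy1 the highest in spleen and Cd3d in bone marrow, and its 12 genes were above background on all arrays.

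Of 8 NK cell markers 6 were higher in spleen (median 2.70), Gzma by 3.45 and Klrd1 by 3.40, Eomes by 2.41 and Klrb1c by 1.97. The NK list's summed signal ran from 2.61 through 4.48 to 5.25 in spleen, where Gzma was highest, and from 2.15 through 2.51 to 2.82 in bone marrow, where Nkg7 was, with all 8 genes above background throughout. Of 7 conventional dendritic cell markers 6 were higher (median 1.90), among them Ccr7 by 3.71, Clec9a by 1.09 and Clec10a by 0.69. Xcr1, a marker of cross-presenting dendritic cells, was above background on 0 of 10 bone marrow arrays and at least 3.96-fold higher in spleen. That list's summed signal ran from 4.03 through 4.30 to 5.30 in spleen, where Ccr7 was highest, and from 1.61 through 2.47 to 3.01 in bone marrow, where Clec10a was.

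Myeloid genes split. All 7 macrophage markers were higher in spleen (median 2.04), from C1qa at 1.57 and C1qb at 1.59 to Mertk at 2.58 and Spic, the factor of red pulp macrophages, at 3.72. Their summed signal, with Vcam1 the highest in both tissues, ran from 5.35 through 6.50 to 7.0 in spleen and from 3.31 through 3.94 to 4.48 in bone marrow. Of 8 CD11b and myeloid markers 7 were lower in spleen and 0 higher (median -1.12): Cybb by -1.56 and Itgam by -1.47, Fcgr3 by -0.73 and Cebpa by -0.59. The summed signal of the myeloid list, with Csf3r the highest in both tissues, ran from 6.10 through 6.65 to 6.95 in spleen and from 7.10 through 7.42 to 7.72 in bone marrow.

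Neutrophil genes were lower in spleen as well. Of 8 mature neutrophil markers 7 were lower and 0 higher (median -0.64), with Mmp9 at -2.57, Mmp8 at -1.95, S100a8 at -0.46 and Camp at -0.45. All 4 granule genes of neutrophil progenitors were lower, with Elane at -3.62, Ctsg at -3.21, Prtn3 at -3.20 and Mpo at -2.79. Mature neutrophil markers summed, with Camp the highest in both tissues, to 7.63 through 8.42 to 8.68 in spleen and to 8.56 through 8.96 to 9.39 in bone marrow.

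The last lists moved less. Of 6 plasmacytoid dendritic cell markers 3 were higher in spleen and 1 lower (median 0.51), of 7 follicular dendritic and stromal markers 3 were higher and 1 lower (median -0.22), and of 7 erythroid markers 2 were higher and 0 lower (median -0.29). Ly6d had 1.45, Bst2 1.40, Tcf4 0.77 and Runx2 -0.79. Cxcl13, the ligand of CXCR5, had 2.13, Enpp2 0.69, Mfge8 0.62 and the collagen gene Col1a1 -3.30, and the red cell genes Alas2 and Hba-a1 had 1.17 and 1.03. The part of these other cells in the difference of the B cell genes was not tested.

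The members moved together over the arrays of a tissue, with exceptions. Over the 11 spleen arrays the correlation of a member with the mean of the others was 0.974 for Blk, 0.971 for Ms4a1, 0.937 for Cd79b, 0.936 for Cr2, 0.931 for Pax5, 0.926 for Fcer2a and 0.826 for Cd79a, and -0.126 for Cd22. Over the 11 bone marrow arrays it was 0.931 for Cd79b, 0.910 for Ms4a1, 0.890 for Pax5, 0.872 for Blk, 0.692 for Cd79a, 0.641 for Fcer2a, 0.209 for Cr2 and -0.417 for Cd22. Cd22 thus stood apart in both tissues, and Cr2 in bone marrow. The arrays share slides and scaling, so these correlations are given as a description.

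Outside the members, the genes most like their mean in spleen were Fcrla (r = 0.984, 11 arrays), Tnfrsf13c (0.982), Grap (0.980), Myl4 (0.975) and Trp53i11 (0.971), of 14905 genes compared. Fcrla is an Fc receptor-like protein of B cells and Tnfrsf13c encodes the receptor for the survival factor BAFF. In bone marrow they were Cd72 (r = 0.984, 11 arrays), Epha2 (0.976), Whrn (0.975), Trib2 (0.975) and Cxxc5 (0.975), of 14546 genes compared. Cd72 is a B cell coreceptor.

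In spleen, the arrays at 1 week after MI held the lowest Cd79a. Cd79a was -1.97 in the WT control and -1.0 in the STAT6-KO control, and -2.92, -3.25 and -2.79 at 1 week in WT, HDC-KO and STAT6-KO. At 2 weeks these genotypes had -1.43, -0.78 and -2.09 and at 4 weeks -1.34, -0.23 and -0.84. All 3 arrays at 1 week lay below the other 8 spleen arrays for Cd79a.

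The limma fit called 0 of 8 members at 1 week in spleen, where it called 7.9% of 26482 genes. It called 994 of 26439 genes without the STAT6-KO control array, and 0 without the 4 WT arrays. At an unadjusted p under 0.05 there were 7252 genes, among them 2 members, Cd79a and Cr2. Cd79a had -1.66 ± 0.43 (SE, 3 arrays against 2) with an adjusted p of 0.0552, and was called in 1 of 12 alternatives, the one that kept genes above background on every array (0.0423; range 0.0423 to 0.728). The members' median was -0.53 beside -0.16 over all genes, with Pax5 at -0.76, Cr2 at -0.66, Ms4a1 at -0.62, Blk at -0.44, Cd79b at -0.43, Fcer2a at -0.39 and Cd22 at 0.50, and the other probes of Pax5 and Cr2 at -0.95 and -0.70. Median scaling put the members at -0.23 and all genes at 0.13.

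T cell genes were lower at the same time. Of 12 T cell markers 10 were lower at 1 week in spleen and 0 higher (median -1.39), Cd3g by -2.07, Cd3e by -1.98, Cd2 by -1.27 and the kinase Zap70 by -1.24. The list's summed signal was 4.91 in the WT control and 5.45 in the STAT6-KO control, 4.12, 4.32 and 4.35 at 1 week, 5.64, 6.30 and 5.58 at 2 weeks and 5.16, 6.07 and 5.66 at 4 weeks in WT, HDC-KO and STAT6-KO. The 3 arrays at 1 week were the lowest for the T cell list as well, whose highest gene in spleen was Thy1. Quantile normalization called 8 of the T cell markers, and with normexp background correction, where the fit called 0 genes in all, their median was -1.27.

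Of the early B cell list 3 of the 6 genes tested were lower too at 1 week: Il7r at -2.03, Vpreb3 at -1.89 and Cd93 at -1.26. T cells carry Il7r as well, and between the tissues Il7r and Cd93 had gone against the median of this list. The NK markers Eomes and Il2rb fell by 1.69 and 1.01 (2 of 8), Zbtb46, a transcription factor of conventional dendritic cells, by 2.22 (1 of 7), Prdm1 of the plasma cell list by 0.74 (1 of 8) and Il4ra, the interleukin-4 receptor chain, by 1.70 (1 of 6). Against these, Elane and Prtn3 of the 4 granule genes rose by 1.88 and 1.66 (median 1.40), and Cybb, of the phagocyte oxidase, by 1.22 (1 of 8 myeloid markers). Without the STAT6-KO control array, the WT control was the single control left. The calls of Cd5 and Bcl11b among the T cell markers, Il7r, Eomes, Zbtb46, Elane and Prtn3 were then kept. The others of these lists were lost with differences about as large: Cd3g had -2.16, Cd3e -2.02, Il4ra -1.70, Cd8a -1.15 and Cybb 1.52. Vcam1 was called lower in that fit, and without WT all were lost. The part of these cells in the members' values was not tested.

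**Figure D3:**
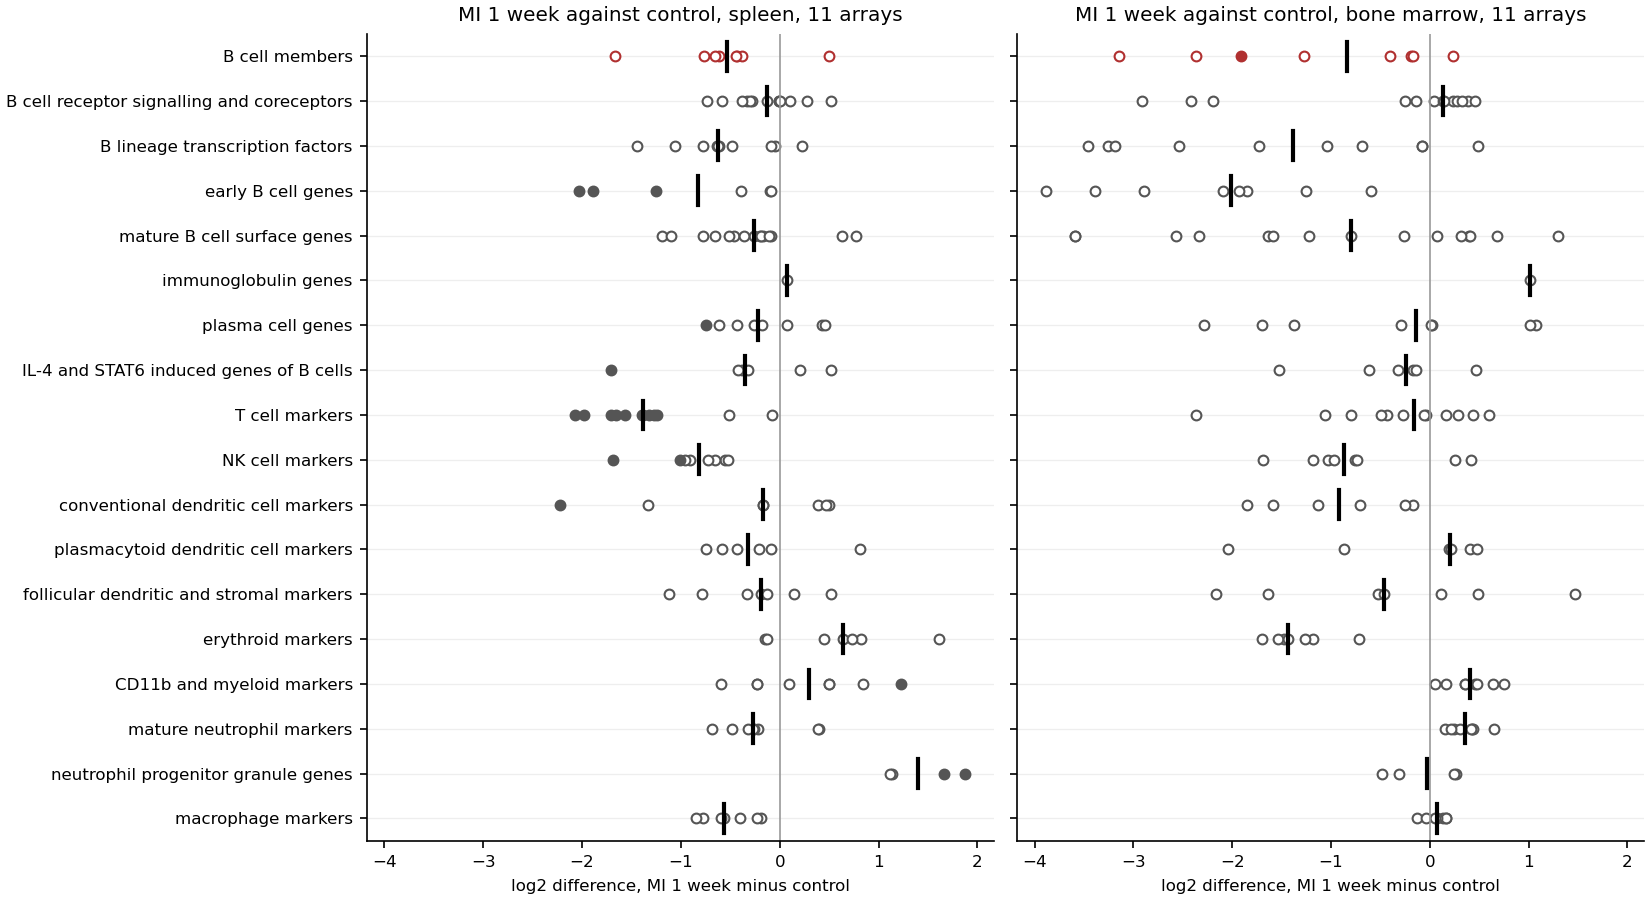
Difference between 1 week after MI and control on the log2 scale (horizontal axis) for each gene of the 18 lists (rows) in spleen and in bone marrow, filled where the limma fit called it, with a bar at the list's median and the members in red. In spleen 10 of 12 T cell markers are filled, and in bone marrow Pax5 is the single filled gene.

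At 2 weeks 7 of the 8 members had positive differences from control in spleen, all but Cd79a at -0.11, and all 8 under quantile normalization or median scaling. Cr2 was 1.29 and 2.66 in the WT and STAT6-KO controls and 2.83, 3.35 and 3.37 at 2 weeks in WT, HDC-KO and STAT6-KO, all 3 above both controls. The fit called 0 of 8 members, where it called 2.25% of all genes and 6286 had an unadjusted p under 0.05, and the members' median was 0.75 beside -0.13. Cr2 had 1.16 (adjusted p 0.066), Ms4a1 1.01 (0.116), Cd79b 0.93 (0.115), Pax5 0.81, Blk 0.69, Fcer2a 0.50 and Cd22 0.35, and the other probes of Cr2 and Pax5 had 1.07 and 0.19. Cr2 passed in 2 of 13 alternatives, under median scaling (1.40, adjusted p 0.0394) and with genes above background on every array (0.0463), over a range of 0.0394 to 0.79.

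Of 15 mature B cell surface genes 2 were called at 2 weeks in spleen, Cxcr5 at 1.63 and Lta at 1.5. Cd93 fell by 1.41, Zbtb46 fell by 1.82, Cxcl13 fell by 1.7 and the myeloid factor Spi1 fell by 1.09, each the single gene called in its list. None of these 6 calls held without the STAT6-KO control array, which left the WT control as the single control. The differences there were about as large, with Cxcr5 at 2.02, Lta at 1.48, Cxcl13 at -1.74 and Spi1 at -1.04. The calls were also lost without any 1 genotype, and with normexp, where limma called 0 genes.

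At 4 weeks limma called 0 members and 0% of all genes in spleen, and 2304 genes had an unadjusted p under 0.05. All 8 members were positive, with a median of 0.76 beside 0.08. Those with an unadjusted p under 0.05 were Ms4a1 at 0.91, Cr2 at 0.81 and Fcer2a at 0.81. Pax5 had 1.05, Blk 0.71, Cd79b 0.57, Cd79a 0.52 and Cd22 0.34, and the other probes of Pax5 and Cr2 had 1.01 and 0.72. The comparisons with control share the same 2 control arrays in spleen, and time went with the position of the array on its slide, so time and position cannot be told apart in either tissue.

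In bone marrow Pax5 fell at 1 week after MI. Its values were -2.10, -1.44 and -3.43 in the WT, HDC-KO and STAT6-KO controls, and -4.00 and -3.63 at 1 week in WT and HDC-KO. At 2 weeks they were -1.85, -1.67 and -2.99 and at 4 weeks -1.18, -0.64 and -1.80 in WT, HDC-KO and STAT6-KO. Both arrays at 1 week lay below the other 9, and the deposited STAT6-KO file at 1 week is not complete.

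The fit called 1 of 8 members at 1 week in bone marrow, where it called 0.148% of 27099 genes. Pax5 had -1.91 ± 0.22 (SE, 2 arrays against 3; adjusted p 0.0408), -1.90 in WT and -2.19 in HDC-KO, and no exact difference is given for its other probe, which was not well above background on the WT array at 1 week. Over 13 alternatives the Pax5 adjusted p ran from 0.0214 to 0.474. The call was lost without WT (-1.94, adjusted p 0.474), without HDC-KO (-1.75, 0.403), without the WT array at 1 week (-1.96, 0.189), with normexp background correction (-1.18, 0.186) and with no filter on dim probes (0.0509).

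Ms4a1 and Cd79b had low values on these arrays without passing. Ms4a1 was 1.1, 2.17 and -0.34 in the WT, HDC-KO and STAT6-KO controls and -2.83 and -0.87 at 1 week in WT and HDC-KO. Cd79b was 3.13, 4.03 and 1.45 in the controls and 0.10 and 1.69 at 1 week. The 1-week arrays were the lowest of the tissue for Ms4a1, while Cd79b overlapped with the STAT6-KO control. Ms4a1 had -3.14 (adjusted p 0.07), Cd79b -2.36 (0.0938) and Blk -1.27 (0.106), whereas Cd79a had -0.40, Cr2 -0.19, Fcer2a -0.17 and Cd22 0.24, and the other Cr2 probe -0.57. The members' median was -0.83 beside 0.06 over all genes. Without the STAT6-KO arrays the fit called 3 members: Pax5, Ms4a1 (-3.49, adjusted p 0.0346 in a range of 0.0325 to 0.563) and Cd79b (-2.68, 0.0443 in a range of 0.0411 to 0.607). Without the STAT6-KO control array alone it called the same 3, Pax5 (-2.05, adjusted p 0.0301), Ms4a1 (0.0325) and Cd79b (0.0411), among 352 of 26962 genes.

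Limma called 0 genes of the other lists at 1 week in bone marrow, where 5337 of all genes had an unadjusted p under 0.05. All 8 early B cell genes were negative (median -2.01), with Dntt at -0.59 the nearest to 0. No exact value or rank is given for Rag1, which was well above background on 1 of the 2 arrays at 1 week. The median of the list includes this gene. Negative too were all 7 erythroid markers (median -1.44), from Slc4a1 at -1.69 to Epor at -0.71. All 8 CD11b and myeloid markers were positive (median 0.41), from Cebpa at 0.05 to Cybb at 0.75. The summed signal of the erythroid markers, with Hba-a1 the highest, was 5.35, 4.74 and 2.88 in the WT, HDC-KO and STAT6-KO controls and 2.28 and 4.26 at 1 week in WT and HDC-KO. That of the early B cell genes was 3.73, 4.59 and 2.42 in the controls and 1.54 and 2.79 at 1 week. Without the STAT6-KO control array genes of other lists were called too, all of them lower, among them 5 of 15 mature B cell surface genes and 3 of 10 B lineage transcription factors. Lists of other cells held such calls as well, with Cd2 of the T cell markers at -2.59 and Klrd1 of the NK cell markers at -1.89. Ccr7 of the conventional and Ly6d of the plasmacytoid dendritic cell markers had -1.82 and -2.46. Irf4 and Sdc1 of the plasma cell list had -2.61 and -1.45. The part of these cells in the Pax5 value was not tested.

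At 2 weeks limma called 0 members and 0% of all genes in bone marrow, with 2026 genes at an unadjusted p under 0.05, and the members' median was 0.01 beside 0.01. Cd79a had 0.29, Pax5 0.15, Cd22 0.10, Blk 0.04, Fcer2a -0.03, Cd79b -0.05, Ms4a1 -0.22 and Cr2 -0.26, and the other probes of Pax5 and Cr2 had 0.12 and -0.19. At 4 weeks it called 0 members and 0% of all genes, with 5189 at an unadjusted p under 0.05, and the median was 0.29 beside 0.04. Pax5 had 1.12 at 4 weeks (adjusted p 0.0745), its other probe 0.93 (0.0929), and was called in 1 of 13 alternatives (0.0358, range 0.0358 to 0.599). Cd79b had 0.76, Blk 0.42, Cd79a 0.40, Fcer2a 0.19, Cd22 0.05, Ms4a1 0.04 and Cr2 -0.32, and the other Cr2 probe -0.25.

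Between genotypes in spleen, limma called 1 member, Cr2. STAT6-KO minus WT was 1.37 in the controls, 0.96 at 1 week, 0.54 at 2 weeks and 1.52 at 4 weeks after MI, higher in 4 of 4 pairs. The estimate was 1.1 ± 0.20 (SE, adjusted p 0.043), and 1 of 8 members was called where 1.96% of all genes were. The exact two-sided sign-flip p was 0.125, the smallest that 4 pairs allow. Fcer2a, which was not called, was also higher in 4 of 4 pairs with the same sign-flip p, but by as little as 0.001 in the controls. The members' median was 0.46 beside -0.06, with Ms4a1 at 0.73 (adjusted p 0.13), Cd79b at 0.65 (0.139), Blk at 0.58 (0.192), Fcer2a at 0.35, Pax5 at 0.34, Cd79a at 0.23 and Cd22 at -0.02. The other Pax5 probe had 0.22.

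The Cr2 call was kept in 4 of 16 alternatives, with estimates from 0.93 to 1.29 and adjusted p from 0.03 to 0.411. It was lost with normexp (0.93, adjusted p 0.411), quantile normalization (1.13, 0.0505), no filter on dim probes (0.054), the 2 genotypes alone (0.0829) and the t-test of the methods under Benjamini-Hochberg (0.306). It was also lost when any time was left out (control 1.01, adjusted p 0.0673; 1 week 1.14, 0.103; 2 weeks 1.29, 0.0939; 4 weeks 0.96, 0.158), without the STAT6-KO control array alone (1.01, 0.0677), without the spleen array labelled as STAT6-KO at 4 weeks (1.05, 0.084) and with the other Cr2 probe (0.0551). Of the other lists the single gene called was Col1a1, lower by -1.23 in STAT6-KO, and the medians were 0.51 for the T cell markers, from Cd3d at -0.62 to Bcl11b at 0.71, and 1.40 for the macrophage markers, from Adgre1 at 0.35 to Mertk at 1.59. The macrophage markers summed to 6.67, 5.43, 5.35 and 5.48 in WT and to 6.78, 7.0, 6.67 and 6.50 in STAT6-KO, at control, 1, 2 and 4 weeks. Without the STAT6-KO control array Col1a1 kept its call, 6 of 7 macrophage markers were called higher and Elane, Prtn3 and Socs1 lower, and the part of these cells in the Cr2 value was not tested.

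For HDC-KO against WT in spleen 0 members were called by limma, where 2.81% of all genes were and 5990 genes had an unadjusted p under 0.05. The median was 0.37 beside 0.06, and Cr2 had 0.72 (adjusted p 0.121), Pax5 0.65, Cd79a 0.60, Blk 0.39, Cd79b 0.36, Fcer2a 0.32, Ms4a1 0.26 and Cd22 -0.08, with the other probes of Pax5 and Cr2 at 0.66 and 0.55. Foxo1, a transcription factor of B and T cells, was 0.79 higher in HDC-KO and Il7r 1.64 higher. The T cell genes Cd5 and Thy1 were each 0.95 higher and Bcl11b was 1.21 higher (3 of 12), while Cybb differed by -1.24. Without the STAT6-KO control array these calls but that of Thy1, then at 0.91, were kept, and 4 of 7 macrophage markers were called higher and Mmp9 and Socs1 lower. For STAT6-KO against HDC-KO in spleen limma called 0 members and 4.97% of all genes, with 6172 at an unadjusted p under 0.05. Ms4a1 had 0.47, Cr2 0.38, Cd79b 0.29, Blk 0.19, Cd22 0.06, Fcer2a 0.03, Pax5 -0.30 and Cd79a -0.36, and the other probes of Cr2 and Pax5 had 0.45 and -0.44. The median was 0.13 beside -0.09, and Eomes (-1.53) and Col1a1 (-1.18) were lower in STAT6-KO. Each genotype sat on its own slide in each tissue, so genotype and slide cannot be told apart, and the 3 genotype comparisons share arrays.

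STAT6-KO bone marrow held less Pax5 signal than WT bone marrow. The differences were -1.33 in the controls, -1.14 at 2 weeks and -0.62 at 4 weeks, negative in 3 of 3 pairs. The estimate was -1.04 ± 0.19 (adjusted p 0.0275), and 1 of 8 members was called where 4.62% of all genes were, or 0 of 8 and 396 of 26962 genes without the STAT6-KO control array. The other Pax5 probe gave -1.60 (adjusted p 0.00821). Cr2 and Cd22 went the other way without a call by their main probes, Cr2 at 0.39 (adjusted p 0.42) and Cd22 at 0.51 (0.0826), while the other Cr2 probe gave 1.15 (0.00931). Cd79b had -0.78, Ms4a1 -0.37, Blk -0.26, Cd79a -0.17 and Fcer2a 0.12, and the members' median was -0.21 beside 0.07. This median was 0.02 beside 0.06 without the STAT6-KO control array.

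The Pax5 call was kept in 7 of 16 alternatives, with adjusted p from 0.00821 to 0.393. It was lost without the controls (-0.88, adjusted p 0.139), 1 week (-1.03, 0.0535), 2 weeks (-1.01, 0.214), 4 weeks (-1.24, 0.0686), the WT array at 1 week (-1.03, 0.0537) or the STAT6-KO control array (-0.84, 0.0947), with normexp (-0.98, 0.0659), with the 2 genotypes alone (0.155) and with the t-test of the methods under Benjamini-Hochberg (0.393). Plasma cell genes were higher in STAT6-KO bone marrow, 3 of 8: Jchain by 2.93, Prdm1, the factor that ends the B cell program, by 1.44, and Derl3 by 1.22. Jchain was 0.18, 0.73 and 1.01 in WT and 4.01, 3.35 and 2.77 in STAT6-KO at control, 2 and 4 weeks, with no overlap. Id3 was 0.97, Cd4 0.77, Cd8a 0.61 and Prf1 0.54 higher, H2-Aa differed by -1.16. Of these genes Prdm1 and Derl3 kept their calls without the STAT6-KO control array. Among the calls lost there, Jchain had 2.16, Id3 1.00, Cd4 0.80 and H2-Aa -0.98. The part of plasma cells in the Pax5 value was not tested.

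Against HDC-KO, too, Pax5 was lower in STAT6-KO bone marrow. Pax5 was -1.44, -1.67 and -0.64 in HDC-KO and -3.43, -2.99 and -1.80 in STAT6-KO at control, 2 and 4 weeks. At each of these times the STAT6-KO array was the lower one, and the highest STAT6-KO value was below the lowest of these 3 HDC-KO values. The estimate was -1.48 (adjusted p 0.00746), the other probe gave -1.96 (0.00383), and 1 of 8 members was called where 6.43% of all genes were. Cd79b had -1.56 (adjusted p 0.0654), Ms4a1 -1.53 (0.073), Cd79a -0.85 (0.064), Blk -0.46, Fcer2a -0.43 and Cd22 0.53 (0.0652), and the members' median was -0.65 beside 0.07. The other Cr2 probe passed at 0.67 (adjusted p 0.045) while its brightest probe gave -0.40 (0.361).

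The Pax5 call was kept in 12 of 16 alternatives over a range of 0.00383 to 0.302, among them that without the STAT6-KO control array (-1.28, adjusted p 0.0331). It was lost without the controls (-1.24, adjusted p 0.0505), without 2 weeks (-1.54, 0.11), with the 2 genotypes alone (0.0985) and with that t-test (0.302). Of 10 B lineage transcription factors 3 were lower in STAT6-KO and 1 higher (median -1.06): Bach2 by -2.13, Foxo1 by -1.1 and Tcf3 by -1.02, and Id3, which binds and blocks E proteins such as TCF3, by 1.03. Il7r was -1.82 and Tnfrsf13c -1.98. The plasma cell list went both ways, with Irf4 at -1.62, whereas Tnfrsf17, Prdm1 and Derl3 were 1.59, 1.09 and 0.67 higher. Cd2 (-1.55), Ccr7 (-1.19) and Tcf4 (-0.68) were lower, and Cd4 (1.27) and Prf1 (0.71) higher. Of these list genes Prdm1 and Cd4 kept their calls without the STAT6-KO control array, where limma called 432 of 26962 genes. Among the calls lost there, Bach2 had -1.56, Tnfrsf13c -1.52, Irf4 -1.14 and Id3 1.06.

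For HDC-KO against WT in bone marrow limma called 0 members and 0.443% of all genes, with 5755 at an unadjusted p under 0.05. The members' median was 0.62 beside -0.01, and 7 of 8 were positive, or 6 with normexp and 8 with median scaling. Cd79a, Cd79b, Cr2, Fcer2a, Ms4a1 and Pax5 were each higher in HDC-KO in 4 of 4 pairs. Their exact two-sided sign-flip p was 0.125, the smallest that 4 pairs allow. The lowest of these pairs were 0.012 for Cr2 and 0.045 for Fcer2a. Blk was higher in 3 and Cd22 in 1 of 4 pairs. Ms4a1 had 1.16 (adjusted p 0.168), Cr2 0.79 (0.153), Cd79b 0.78, Cd79a 0.68 (0.146), Fcer2a 0.55, Pax5 0.44, Blk 0.20 and Cd22 -0.02, and the other probes of Cr2 and Pax5 had 0.48 and 0.36. The last value is not exact, since that Pax5 probe was not well above background on the WT array at 1 week. Cd8a, the single gene called in the other lists, was 0.74 higher. Its call was lost without the STAT6-KO control array, where the difference was again 0.74 (adjusted p 0.0774).

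Whether a genotype effect differed between the tissues was tested on the 10 differences between spleen and bone marrow. For STAT6-KO limma called 0 members and 1.24% of all genes, with 5260 at an unadjusted p under 0.05. The members' median was 0.67 beside -0.12. Cd79b had 1.37 (adjusted p 0.191) and Pax5 1.30 (0.152), so the opposite signs of the STAT6-KO difference in Pax5, 0.34 in spleen and -1.04 in bone marrow, did not pass the test. Ms4a1 had 1.0, Cr2 0.68, Blk 0.67, Cd79a 0.27, Fcer2a 0.15 and Cd22 -0.42, and the other probes of Pax5 and Cr2 1.68 and -0.26. For HDC-KO it called 0 members and 1.78% of all genes, with 5849 at an unadjusted p under 0.05, and the median was -0.09 beside 0.07. Blk had 0.39, Pax5 0.34, Cd79a -0.04, Cd22 -0.08, Cr2 -0.11, Cd79b -0.22, Fcer2a -0.30 and Ms4a1 -0.73, and the other probes of Pax5 and Cr2 0.49 and 0.07.

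Promoters are shown for Cr2 and Pax5, whose values the results turn on, and for Fcer2a and Cd22, which held a STAT6 or an EBF site. RefSeq promoters of the build GRCm38.p6, from 250 bases before to 50 after the start, were found for 5 of the 8 members, Cr2, Pax5, Cd79a, Cd22 and Fcer2a, with 7 promoters in all. On both strands they were searched for the STAT6 site TTCNNNNGAA (6.95% of 32851 promoters), the EBF site TCCCNNGGGA (0.904%), the octamer ATGCAAAT (1.74%) and the PU.1 core GAGGAA (28.3%). One Fcer2a promoter held the STAT6 site, at position -168 from the start, the Cd22 promoter the EBF site, and the Cd79a promoter the PU.1 core, while the octamer was in 0 of the 7. Capitals mark the match, the Cr2 and Pax5 windows hold none of these letters, and all 4 lie on the minus strand, at chr8:3690812-3691111 (Fcer2a), chr7:30878979-30879278 (Cd22), chr1:195176670-195176969 (Cr2) and chr4:44710645-44710944 (Pax5).
Fcer2a: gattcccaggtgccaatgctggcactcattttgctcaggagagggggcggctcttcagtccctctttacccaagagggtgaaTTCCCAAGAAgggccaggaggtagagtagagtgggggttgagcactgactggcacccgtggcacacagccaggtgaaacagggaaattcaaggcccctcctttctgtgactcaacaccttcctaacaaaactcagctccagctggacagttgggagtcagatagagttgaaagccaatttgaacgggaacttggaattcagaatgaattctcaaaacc
Cd22: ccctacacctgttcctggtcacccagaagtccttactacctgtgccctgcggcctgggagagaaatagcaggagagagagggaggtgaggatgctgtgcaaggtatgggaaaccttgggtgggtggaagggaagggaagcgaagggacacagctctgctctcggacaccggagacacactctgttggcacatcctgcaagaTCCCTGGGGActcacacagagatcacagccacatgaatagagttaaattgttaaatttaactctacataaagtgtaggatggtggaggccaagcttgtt
Cr2: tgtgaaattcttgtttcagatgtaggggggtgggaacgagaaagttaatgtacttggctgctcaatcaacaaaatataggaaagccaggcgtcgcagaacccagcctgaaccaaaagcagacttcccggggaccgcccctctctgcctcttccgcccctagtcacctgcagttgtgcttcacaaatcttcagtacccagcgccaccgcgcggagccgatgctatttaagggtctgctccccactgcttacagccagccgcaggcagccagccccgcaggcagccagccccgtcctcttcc
Pax5: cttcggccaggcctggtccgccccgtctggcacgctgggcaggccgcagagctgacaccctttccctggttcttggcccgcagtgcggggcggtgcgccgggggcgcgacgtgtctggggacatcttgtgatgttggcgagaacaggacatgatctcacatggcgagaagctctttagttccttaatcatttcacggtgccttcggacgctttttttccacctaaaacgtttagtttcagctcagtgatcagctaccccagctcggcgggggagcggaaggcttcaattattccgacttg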

How the data were processed

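The authors deposited Agilent Feature Extraction files with 1 processed signal intensity in arbitrary units for each spot. Spots flagged as outliers were left out (3055 over the 22 complete arrays; 0 were saturated), the spots of a probe were averaged, and log2 values were scaled to the 75th percentile of non-control spots. Probes well above background made up 70.4% to 79.8% of an array, and the number of arrays limits the precision. The lowest shares were those of WT at 1 week after MI, 70.4% in spleen and 71.3% in bone marrow, and the next lowest was 75.1%. The part of this in the results at 1 week was not tested. Members and gene lists were chosen with earlier results of these data known.

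Genes well above background on at least 2 arrays of a fit were tested with limma 3.58.1 in R 4.3.3. Tissues were compared over 10 pairs, genotypes and times within a tissue with genotype and time as additive terms, and the interaction on paired differences. With 1 array of 1 pool a condition, the spread behind the p-values comes from what the additive terms leave. Neither the spread between repeated pools of a condition nor that between single mice is measured. A call is a Benjamini-Hochberg adjusted p under 0.05 over all genes of the fit, and the fits were checked on simulated data. Single members were also tested by exact sign flips over pairs. All members are named in every fit, and of other lists up to the 2 largest and 2 lowest called differences, or all where few were called, or the largest and lowest of a list described with none called. Alternatives changed the background correction, normalization, filter, probe, block or arrays.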

Additional observations from a re-analysis of the deposited data

Results flagged for a closer look

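Of 12 T cell markers 3 differed in their HDC-KO effect between spleen and bone marrow by the interaction test, where 1.78% of all genes did: Cd3g by 2.08, Cd5 by 1.65 and Bcl11b by 1.64, with adjusted p of 0.033, 0.0285 and 0.0374 in the limma fit on 10 paired differences. That fit called 0 genes with normexp or without the WT pair at 1, 2 or 4 weeks or the HDC-KO pair at 1 or 4 weeks.

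Some members moved one way in every pair of arrays in spleen and the other way in every pair in bone marrow, and the difference between the tissues was not tested for any of these. For STAT6-KO against HDC-KO the mean of Cr2 was 0.33 in spleen and -0.53 in bone marrow, a gap of 0.87 over 3 and 3 pairs. This held for the brightest probe of Cr2 only, as the other Cr2 probe was higher in 3 of 3 pairs in both tissues, by 0.40 and 0.65. Ms4a1 in the same comparison had 0.44 and -1.40, a gap of 1.83. The lowest spleen pair in this comparison was as small as 0.015 for Cr2 and 0.007 for Ms4a1. At 2 weeks after MI the other Cr2 probe had 1.05 and -0.19 against control, a gap of 1.24 over 2 and 3 pairs, while its brightest probe was lower in 2 of the 3 bone marrow pairs. At 4 weeks Cr2 had 0.70 and -0.32, a gap of 1.02, and its other probe 0.60 and -0.25, a gap of 0.86. The highest bone marrow pair of that other probe was -0.00049.

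For the other Cr2 probe in spleen, the difference between STAT6-KO and WT at 2 weeks was 0.32, far from the nearest of the other pairs at 1.14. It was the single such pair in 30 groups of pairs looked at, and chance gives about 1 in 20 groups.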

How the results depend on the processing

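Of the results for the members' medians 210 of 217 kept their value within the spread between pairs, of the numbers called 182 of 223 stayed within 1.5 times, and of the single members 573 of 629 kept direction and side of the threshold, with 17 stronger, 39 weaker and 0 reversed. Leaving out the WT bone marrow array at 1 week, the STAT6-KO spleen array at 4 weeks or a STAT6-KO control array was chosen after seeing the data. The slide correlation was 0.136. Dim signals and 1 array a condition limit the small differences. Except where fewer arrays or fewer genes entered a fit, the cause was not tested.

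Normexp gave 0 members called for STAT6-KO against WT in spleen, 0 in bone marrow and 0 for 1 week in bone marrow; it moved the median of all genes to 0.27 for STAT6-KO against WT in spleen and to 0.31 at 1 week in bone marrow, and the members' medians to 0.40 for HDC-KO against WT in bone marrow and to -0.068 at 1 week there. Quantile normalization gave 0 for STAT6-KO against WT in spleen and 2 for STAT6-KO against HDC-KO in bone marrow. Median scaling gave 1 at 2 weeks in spleen and 2 for STAT6-KO against HDC-KO in bone marrow, and moved the median at 1 week in spleen to -0.23. Keeping genes above background on every array gave 1 at 1 week and 1 at 2 weeks in spleen, 4 for STAT6-KO against HDC-KO, 2 at 1 week and 1 at 4 weeks in bone marrow. No filter gave 0 for STAT6-KO against WT in spleen and 0 at 1 week in bone marrow, and a floor on dim signals 3 for STAT6-KO against HDC-KO in bone marrow. With the 2 genotypes alone, and with Benjamini-Hochberg on the methods' own test, 0 were called for STAT6-KO against WT in spleen and in bone marrow and 0 for STAT6-KO against HDC-KO in bone marrow; that test with a fold over 2 called 1 for HDC-KO against WT in bone marrow. Without the STAT6-KO spleen array at 4 weeks 0 were called for STAT6-KO against WT in spleen. Without the WT bone marrow array at 1 week 0 were called for STAT6-KO against WT and 0 at 1 week, and the median for HDC-KO against WT was 0.49. Without the STAT6-KO control array 0 were called for STAT6-KO against WT in spleen and in bone marrow and 3 at 1 week in bone marrow, and the medians in bone marrow were 0.02 for STAT6-KO against WT, -0.13 at 2 weeks and 0.16 at 4 weeks. Leaving out each time or genotype in turn gave 0 to 0 for STAT6-KO against WT in spleen and in bone marrow, 0 to 1 for STAT6-KO against HDC-KO and 0 to 3 at 1 week in bone marrow, with medians from -0.73 to -0.41 at 1 week, 0.57 to 0.99 at 2 weeks and 0.65 to 0.84 at 4 weeks in spleen, and from -1.17 to -0.53, -0.13 to 0.15 and 0.11 to 0.41 in bone marrow. For STAT6-KO against WT, HDC-KO against WT and STAT6-KO against HDC-KO they ran from 0.31 to 0.73, 0.29 to 0.52 and 0.03 to 0.32 in spleen, and from -0.31 to -0.01, 0.49 to 0.65 and -0.72 to -0.62 in bone marrow. For spleen against bone marrow they ran from 0.93 to 1.11, and for the interactions from 0.43 to 0.96 (STAT6-KO) and -0.29 to 0.15 (HDC-KO).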

Other observations

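Jchain, the chain that joins polymeric antibodies, was 3.11 in the WT spleen control, the lowest of the spleen arrays, and 5.80 in the STAT6-KO spleen control, the highest. In bone marrow Jchain was lowest in the HDC-KO control at -0.30 and highest in the STAT6-KO control at 4.01. The 8 plasma cell genes, with Jchain the highest in spleen and Xbp1 in bone marrow, summed to 6.53 in the STAT6-KO spleen control and to 5.04 in the WT spleen control. The 2 STAT6-KO controls are also the STAT6-KO arrays well above background on the brighter Xist probe, at -2.06 in spleen and -3.18 in bone marrow, and the part of this in the Jchain values was not tested.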
